A study of Homo sapiens with 24 samples.

Results

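The imprinted genes described here were 33 genes known to be expressed from only the maternal or only the paternal chromosome in at least some human tissues, among 60675 genes counted. They were chosen by symbol, and each symbol matched 1 Ensembl gene in the count tables. RNA-seq was performed in ACHN, a human renal cancer cell line labelled as clear cell renal cell carcinoma, and in HK-2, a human kidney proximal tubular epithelial line. In each line, cells carried a control hairpin (shCtrl, shNC in the labels), a hairpin against KDM5C (shKDM5C), a hairpin against YY1 (shYY1) or both (double knockdown, Dsh in the labels), with 3 replicates per group and 24 libraries in all. KDM5C removes methyl groups from histone lysines at promoters and enhancers, and YY1 is a zinc-finger transcription factor that can activate or repress its targets. All 8 groups were stably infected with pLKO.1 lentivirus, selected with puromycin and grown in DMEM with 10% fetal bovine serum. The double knockdown was made by infecting YY1-depleted cells with a GFP-labelled shKDM5C vector, so it also differs from the other groups by a second infection and GFP. Which of the hairpins designed per gene was used for sequencing is not given in the sources used here, and nothing in the labels says that the replicates were separate cultures, so p-values measure the spread between libraries, which may be technical.

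Imprinting is set in the germ line by DNA methylation of control regions, and these marks then keep 1 parental copy of a gene silent in the body. Imprinted genes lie in clusters that mix protein-coding genes with long noncoding RNAs, and many of them govern growth of the fetus and placenta: paternally expressed genes such as IGF2 tend to promote growth and maternally expressed genes such as CDKN1C and H19 tend to restrain it. Total counts do not separate the parental copies, so what follows is the summed RNA of both.

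Library totals were between 15926561 and 24272298 counts. The targeted genes were lower in the groups so labelled: the log2 fold change of KDM5C lay between -1.74 and -0.73 in the 4 groups with its hairpin, and that of YY1 between -1.70 and -0.51 in the 4 groups with its own, all with an edgeR adjusted p-value under 0.05. KDM5C was also higher in shYY1 than in shCtrl, by 0.34 on the log2 scale in ACHN and 0.35 in HK-2 (edgeR adjusted p-values 1.14e-08 and 1.54e-05). YY1 was not called in shKDM5C of either line (0.06 and 0.19). In ACHN, YY1 was at 76.8 ± 3.57 CPM (SD, n = 3; CPM is the count of a gene relative to the normalized total of its library) in shYY1 and at 97 ± 7.07 CPM in the double knockdown, against 139 ± 3.90 CPM in shCtrl, so it was less reduced in the double knockdown. Kidney epithelial markers PAX8, KRT8 and KRT18 were above 100 CPM in the controls of both lines, while CDH6 was at 0.335 CPM in ACHN and CDH1 at 1.32 CPM in HK-2. NANOG, DPPA3 and DAZL, which mark cells in which imprints are reset, were at 0 in the controls of both lines, whereas POU5F1 of the same marker list was at 17.3 CPM in ACHN and 11.9 CPM in HK-2. PTPRC, PECAM1 and ALB were under 1 CPM in both lines. The fibroblast marker COL1A1 was at 584 CPM in ACHN and 30.8 CPM in HK-2. HK-2 shKDM5C replicate 1 stood apart from its fellow replicates, with a root mean square log2 difference over genes of 0.702 from their mean, against 0.205 between those 2, and member calls for that group are given with and without it. KDM5C was at 34.1 CPM in this library, against 67.5 and 67.1 CPM in those 2. The fits without replicate 1 thus leave out the library of that group with the lowest KDM5C.

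Some members could be measured in 1 line alone, and the share of all genes like this is not given here. In control cells the 5 highest members were the same in both lines. Per exon length, GNAS (the stimulatory G protein alpha subunit), PEG10 (a retrotransposon-derived gene needed for the placenta), IGF2R (the receptor that clears IGF2), SGCE (epsilon-sarcoglycan) and PHLDA2 (a restrainer of placental growth) were the 5 highest in both lines, with RPKM levels (CPM per kilobase of exons) of 43.7, 64.5, 27.1, 45.7 and 17 in ACHN and of 102, 80.4, 48.8, 28.8 and 40.3 in HK-2. A member was taken as measurable in a line when it passed edgeR's filter on low counts in at least 1 of the 3 comparisons with shCtrl. By this rule 22 members were measurable in ACHN, 22 in HK-2, 16 in both, and 5 in neither, namely H19, DLK1, RTL1, MAGEL2 and MKRN3. DLK1 had 0 counts in all 24 libraries. IGF2, MEG3, MEST, SNURF, KCNQ1OT1 and DIRAS3 were measurable in ACHN alone, and PEG3, ZIM2, NDN, KCNQ1, PLAGL1 and NAP1L5 in HK-2 alone.

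Several of these differences were between a clear level and 0. MEG3, the maternally expressed noncoding RNA of the chromosome 14 cluster, was at 145, 140 and 135 CPM in the 3 ACHN shCtrl libraries and at 0 in all 12 HK-2 libraries, which makes it at least 2610-fold higher in ACHN (against a floor of 3 counts over the HK-2 control group). KCNQ1OT1, the paternally expressed antisense RNA that silences its neighbours on chromosome 11, was at 41.2, 42.9 and 41.7 CPM in ACHN and at 0 in every HK-2 library, at least 781-fold higher in ACHN. NDN, necdin, a growth suppressor of the Prader-Willi region, showed the reverse, with 30, 26.3 and 28.5 CPM in HK-2 and 0 in every ACHN library, at least 529-fold higher in HK-2. The paternally expressed zinc-finger genes PEG3 and ZIM2 were also at 0 in every ACHN library and at 1.64 ± 0.312 and 1.94 ± 0.533 CPM in HK-2 shCtrl, at least 30.5-fold and 36.5-fold higher there. These 5 genes were picked for being at 0 in 1 control group, so that the lines did not overlap follows from the choice. The share of all genes at 0 in 1 line, or measurable in 1 line alone, is not given here. Floors and bounds here cover counting error only, since reads carried no molecular identifiers.

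Of the 25 members tested between the control groups with edgeR (quasi-likelihood F test, p-values adjusted over all genes by Benjamini-Hochberg), 7 were called higher in ACHN and 14 lower, at adjusted p-values under 0.05. Over all genes, 38.6% were called higher and 38% lower, so a member being called was itself common. For 9 of the 21 (MEG3, KCNQ1OT1, MEST, NDN, PEG3, ZIM2, KCNQ1, PLAGL1 and NAP1L5) only the libraries of the higher line reached the count filter, so that being tested already required a difference, and their values are given as a description; of the other 12, 4 were higher and 8 lower in ACHN. MEST, a paternally expressed hydrolase-like gene, was at 15.2 ± 0.936 CPM in ACHN shCtrl and held 10 counts in all in HK-2 shCtrl. PLAGL1, a zinc-finger transcription factor that restrains proliferation, was at 59.8 ± 3.6 CPM in HK-2 shCtrl and held 12 counts in all in ACHN shCtrl. CDKN1C, an inhibitor of cyclin-dependent kinases, was 8.15-fold lower in ACHN (log2 fold change -3.03 ± 0.155, SE, edgeR adjusted p = 3.3e-16). Other members measurable in both lines differed less, among them the fetal growth adaptor GRB10 2.17-fold higher and GNAS 2.34-fold lower in ACHN. With 1 line of each kind, a difference between cancer and normal tubule cells cannot be told apart from any other difference between the lines.

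**Figure D1:**
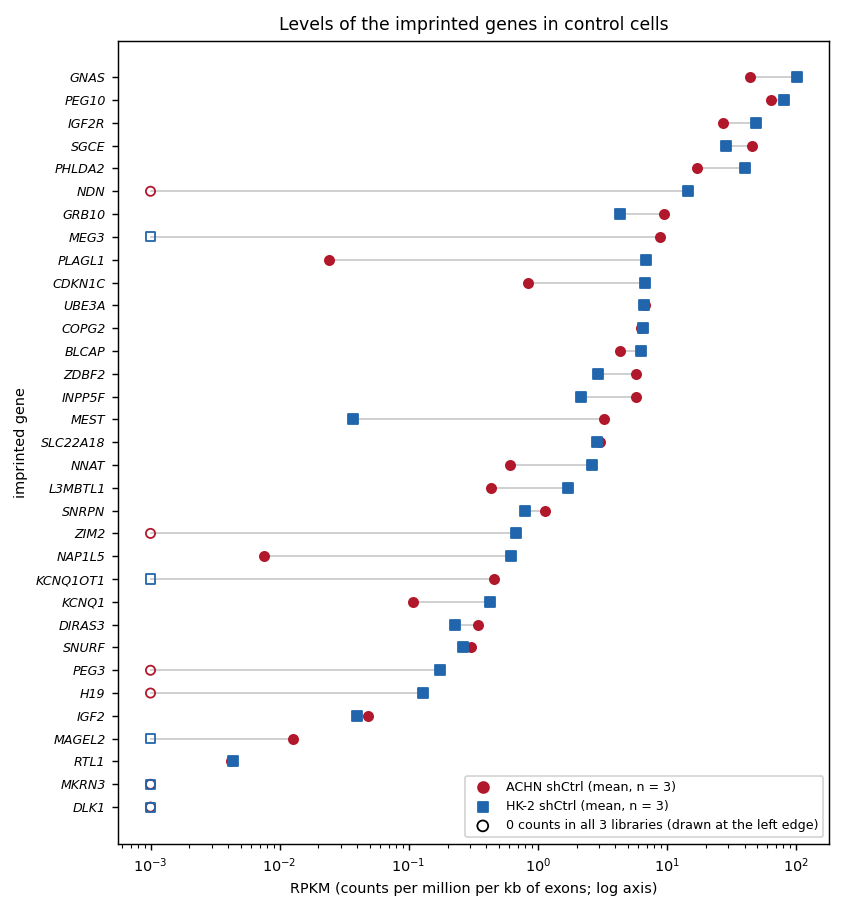
Mean RPKM (log axis) of the 33 imprinted genes in shCtrl cells, circles for ACHN and squares for HK-2, n = 3 each, joined by a line per gene. Open symbols at the left edge are genes with 0 counts in all 3 libraries: MEG3, KCNQ1OT1 and MAGEL2 in HK-2, NDN, PEG3, ZIM2 and H19 in ACHN, and DLK1 and MKRN3 in both.

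The knockdowns changed imprinted genes in both directions. Between each knockdown and shCtrl of its line, 28 members were tested in at least 1 of the 6 comparisons and 22 were called at an adjusted p-value under 0.05 in at least 1 of them. The 6 members that were tested in these comparisons but called in none of them were COPG2, DIRAS3, KCNQ1, NAP1L5, SNRPN and ZIM2. In ACHN, shKDM5C raised 4 and lowered 8 of 19 members tested (over all genes, 28.9% were called higher and 27.7% lower), shYY1 raised 7 and lowered 4 of 20 (all genes, 24.2% and 24.5%), and the double knockdown raised 8 and lowered 7 of 21 (all genes, 30.7% and 32%). In HK-2, shYY1 raised 1 and lowered 3 of 22 (all genes, 14.3% and 14.7%) and the double knockdown raised 5 and lowered 5 of 22 (all genes, 25.5% and 24.3%). Without double knockdown replicate 3 the latter count was 8 higher and 4 lower, and without shCtrl replicate 1 shYY1 raised 0 and lowered 2. In HK-2 shKDM5C no member of 22 was called by edgeR (all genes, 0.668% and 0.656%), while 4 were under 0.05 before adjustment and DESeq2 called 1, IGF2R. Without replicate 1 of that group, 2 members were called higher and 7 lower (all genes, 11.5% and 10.9%). In the order ACHN shKDM5C, shYY1 and double knockdown, the share of tested members called in either direction was 63.2%, 55% and 71.4%, against 56.6%, 48.7% and 62.6% of all genes tested, and in HK-2 shYY1 and double knockdown it was 18.2% and 45.5%, against 29.1% and 49.8%. The median log2 fold change of the members tested was between -0.17 and 0.07 over the 6 comparisons, against -0.01 to 0.01 over all genes tested. In bulk RNA, fewer cells of a kind and less RNA per cell cannot be told apart.

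The study's own threshold was an unadjusted p-value under 0.05 and a log2 fold change of at least 1.5 in either direction. It was applied here to edgeR values, whereas the study used DESeq2. In HK-2, 0 of 22 members tested passed in each single knockdown and 1 of 22 in the double knockdown. In ACHN, 2 of 19 passed in shKDM5C, 3 of 20 in shYY1 and 2 of 21 in the double knockdown. In ACHN these were CDKN1C and L3MBTL1 in shKDM5C (3.34% of all genes passed), IGF2, MEG3 and PEG10 in shYY1 (3.13% of all genes), and NNAT and L3MBTL1 in the double knockdown (8.42% of all genes). In HK-2 PEG3 passed in the double knockdown (4.3% of all genes), and no member passed in shKDM5C (1.49% of all genes) or shYY1 (1.33% of all genes). CDKN1C in ACHN shKDM5C, IGF2 in ACHN shYY1, SNURF in the ACHN double knockdown and PEG3 in the HK-2 double knockdown reached the count filter in every library of the higher group only, so that being tested already required a difference.

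**Figure D2:**
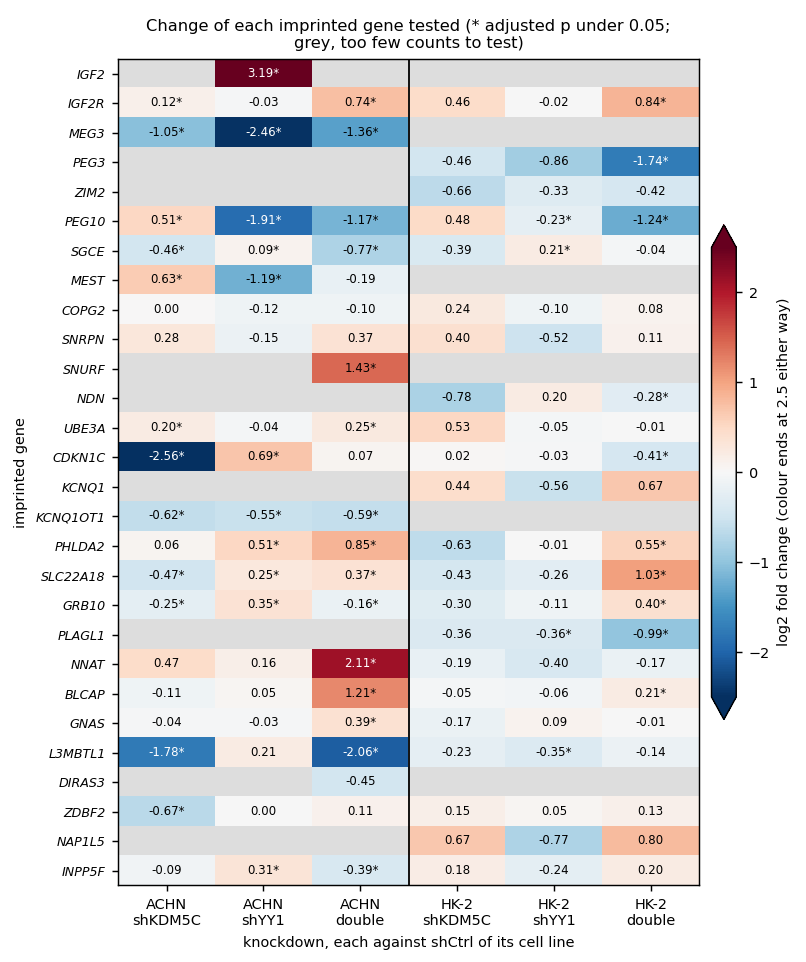
Log2 fold change of each imprinted gene tested (rows) in the 6 comparisons with shCtrl (columns), coloured red for higher and blue for lower, with an asterisk for an edgeR adjusted p-value under 0.05 and grey for too few counts. MEG3 and KCNQ1OT1 were lower in all 3 ACHN knockdowns, and PEG10 was lower in both double knockdowns.

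MEG3 was the member that fell most in ACHN shYY1. Its level was 145, 140 and 135 CPM in shCtrl, 66.5, 70.2 and 68.8 CPM in shKDM5C, 24.9, 25.3 and 27.4 CPM in shYY1, and 50.3, 52.7 and 60.1 CPM in the double knockdown. The 4 groups did not overlap, and the double knockdown lay between the single knockdowns. MEG3 fell 2.07-fold in shKDM5C (log2 fold change -1.05 ± 0.0409, SE), 5.51-fold in shYY1 (-2.46 ± 0.0462) and 2.56-fold in the double knockdown (-1.36 ± 0.0604), with edgeR adjusted p-values of 4.62e-17, 2.81e-30 and 7.21e-13. MEG3 is a noncoding RNA with reported growth-suppressing activity, expressed from the maternal chromosome 14 (GRCh38 chr14:100779410-100861031, + strand). Its partners were low: the paternally expressed DLK1, a transmembrane relative of Notch ligands, was at 0 throughout, and the retrotransposon-derived RTL1 had at most 2 counts in a library. Downstream of MEG3, the maternally expressed noncoding RNA MEG9 (named after its values were seen) fell in ACHN as well, by 0.97, 2.21 and 2.86 on the log2 scale in shKDM5C, shYY1 and double knockdown, from 1.92 CPM in shCtrl to 0.257 CPM in the double knockdown. The latter mean is under the count filter, so being tested there already required a difference. The MEG9 values are a description. The higher MEG3 level in the double knockdown than in shYY1 went together with the higher YY1 level given above, and the part of YY1 dose in it was not tested.

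PEG10 changed in all 3 ACHN knockdowns and in 2 of the 3 in HK-2. In ACHN it was at 427, 423 and 444 CPM in shCtrl, 630, 618 and 617 CPM in shKDM5C, 114, 116 and 120 CPM in shYY1 and 181, 204 and 188 CPM in the double knockdown. No 2 of these groups overlapped, and only shKDM5C lay above shCtrl. The log2 fold changes were 0.51 ± 0.0287, -1.91 ± 0.0317 and -1.17 ± 0.0487 (SE), with edgeR adjusted p-values of 6.87e-14, 1.03e-31 and 2.61e-13. In HK-2, PEG10 was at 534, 554 and 525 CPM in shCtrl, 921, 623 and 632 CPM in shKDM5C, 479, 462 and 440 CPM in shYY1 and 217, 224 and 241 CPM in the double knockdown. The groups again did not overlap, and replicate 1 of shKDM5C was by far the highest library. PEG10 fell 1.17-fold in HK-2 shYY1 (log2 fold change -0.23 ± 0.0459, edgeR adjusted p = 0.00057) and 2.37-fold in the double knockdown (-1.24 ± 0.0445, edgeR adjusted p = 2.25e-20). In HK-2 shKDM5C it was not called (0.48), and without replicate 1 it was (0.21 ± 0.0363, edgeR adjusted p = 0.000102).

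SGCE lies 115 bases from PEG10 on chromosome 7 and is read in the opposite direction, and both are expressed from the paternal copy. The neighbours did not change alike. In ACHN shKDM5C, in which PEG10 rose, SGCE fell from 116 ± 0.632 to 85.5 ± 1.09 CPM (log2 fold change -0.46 ± 0.0379, edgeR adjusted p = 1.2e-10). In ACHN shYY1, in which PEG10 fell 3.75-fold, SGCE was at 126 ± 0.388 CPM, 1.06-fold higher (edgeR adjusted p = 0.032), a call that was lost with DESeq2 and without shCtrl replicate 2 or 3 or any 1 shYY1 replicate (log2 fold changes from 0.08 to 0.09). Both genes fell in the ACHN double knockdown, SGCE 1.7-fold. In HK-2 shYY1, in which PEG10 fell 1.17-fold, SGCE rose 1.16-fold (edgeR adjusted p = 0.00791), a call lost without shCtrl replicate 1 (log2 fold change 0.18). In HK-2 shKDM5C SGCE was not called (-0.39), and without replicate 1, when PEG10 was called higher, SGCE was called lower (-0.23 ± 0.0694, edgeR adjusted p = 0.0199). In HK-2 double knockdown, in which PEG10 fell, SGCE was at 71.3 ± 2.27 CPM against 73.4 ± 3.36 CPM in shCtrl and was not called. The 2 gene models share no exonic bases with each other or with other genes, so these values are not affected by counting without strand.

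MEST, which lies on chromosome 7 as well (chr7:130486171-130506296, + strand), moved in the same directions as PEG10 under the single knockdowns of ACHN. It was at 14.2, 16 and 15.5 CPM in shCtrl, 24.1, 24.5 and 22.5 CPM in shKDM5C, 6.67, 6.52 and 7.05 CPM in shYY1 and 12, 14.5 and 13.3 CPM in the double knockdown. Both single knockdowns were apart from shCtrl, and the double knockdown overlapped it. MEST rose 1.54-fold in shKDM5C (log2 fold change 0.63 ± 0.0776, edgeR adjusted p = 1.63e-07) and fell 2.29-fold in shYY1 (-1.19 ± 0.102, edgeR adjusted p = 6.62e-12). COPG2, a coatomer subunit whose end overlaps that of MEST, stayed between 24.2 and 26.4 CPM on average in the ACHN groups and was called in no comparison. In MEST, 24.7% of exonic bases are shared with other genes, all on the opposite strand, which these counts cannot separate.

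RefSeq windows around transcription starts (GRCh38.p14, from 250 bases before to 50 after) were held for 21 of the 33 members, 50 windows in all, and were searched on both strands for GCCAT, the core of the sequence that YY1 binds, and for the longer AANATGGC, which contains that core in reverse. The upstream 250 bases of 3 members are shown because MEG3 and MEST fell most in ACHN shYY1 among the members with a window and UBE3A was not called there. Capitals mark matches, and each sequence is read 5′ to 3′ in the direction of the gene.
MEG3 upstream of a start, chr14:100825858-100826107, + strand: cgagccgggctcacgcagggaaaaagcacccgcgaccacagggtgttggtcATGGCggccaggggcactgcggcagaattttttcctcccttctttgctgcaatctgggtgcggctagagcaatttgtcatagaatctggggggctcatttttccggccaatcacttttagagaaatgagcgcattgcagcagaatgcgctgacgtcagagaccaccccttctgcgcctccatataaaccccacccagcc
MEST upstream of a start, chr7:130491808-130492057, + strand: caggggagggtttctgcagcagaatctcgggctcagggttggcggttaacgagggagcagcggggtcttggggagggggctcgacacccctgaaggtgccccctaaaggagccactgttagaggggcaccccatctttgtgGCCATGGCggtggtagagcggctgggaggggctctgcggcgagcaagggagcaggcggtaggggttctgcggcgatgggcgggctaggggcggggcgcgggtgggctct
UBE3A upstream of a start, chr15:25439025-25439274, - strand: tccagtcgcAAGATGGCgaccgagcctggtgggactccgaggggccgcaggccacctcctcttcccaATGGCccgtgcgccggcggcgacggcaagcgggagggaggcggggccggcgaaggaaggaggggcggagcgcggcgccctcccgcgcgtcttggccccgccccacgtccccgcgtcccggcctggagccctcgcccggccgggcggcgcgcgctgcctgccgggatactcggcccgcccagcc
The MEG3 window holds 1 core, the MEST window 2 overlapping cores on opposite strands, and the UBE3A window 2 cores, 1 of them within the longer motif. UBE3A, a ubiquitin ligase that is imprinted in neurons, had a log2 fold change of -0.04 in ACHN shYY1 and -0.05 in HK-2 shYY1 and was called in neither. GCCAT is common: 21 of the 50 member windows (42%) held it, against 37.8% of all windows. AANATGGC was in 6 member windows (12%), of BLCAP, PLAGL1, RTL1, SNRPN and UBE3A, against 6.58% of all windows. Windows of 1 gene can overlap and are not independent. A match is a description of letters and does not show a binding site.

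On chromosome 11, the growth-restraining maternally expressed genes and their antisense RNA responded differently from one another. KCNQ1OT1 was lower in all 3 ACHN knockdowns, from 41.9 ± 0.887 CPM in shCtrl to 27.5 ± 2.65 CPM in shKDM5C, 29.0 ± 1.07 CPM in shYY1 and 27.7 ± 1.85 CPM in the double knockdown (log2 fold changes -0.62, -0.55 and -0.59, edgeR adjusted p-values 1.37e-08, 4.65e-10 and 4.94e-07). The 3 knockdowns lay at about the same level.

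CDKN1C was at 2.57, 2.00 and 1.95 CPM in ACHN shCtrl, 0.379, 0.450 and 0.272 CPM in shKDM5C, 3.58, 2.64 and 4.48 CPM in shYY1 and 3.14, 1.72 and 1.96 CPM in the double knockdown. The shKDM5C libraries were apart from all others, shYY1 lay just above shCtrl, and the double knockdown overlapped shCtrl. CDKN1C fell 5.9-fold in shKDM5C, where the 3 libraries held 20 counts in all (log2 fold change -2.56 ± 0.333). None of these libraries reached the count filter, so being tested already required a difference, and the fall is a description. CDKN1C rose 1.61-fold in shYY1 (edgeR adjusted p = 0.00824), which was no longer called without shYY1 replicate 3 (log2 fold change 0.50, edgeR adjusted p = 0.0836). In HK-2, where its level was higher, CDKN1C was at 17.3, 15.4 and 20.1 CPM in shCtrl, 15.2, 19.8 and 17.7 CPM in shKDM5C, 15, 16.4 and 20.6 CPM in shYY1 and 14.8, 13.3 and 11.7 CPM in the double knockdown. Only the double knockdown lay below shCtrl without overlap (log2 fold change -0.41 ± 0.121, edgeR adjusted p = 0.00518), a call lost without shCtrl replicate 3 (-0.31, edgeR adjusted p = 0.0616).

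SLC22A18, a transporter of the same cluster, was at 18.7, 14.1 and 15.2 CPM in ACHN shCtrl, 12, 11.3 and 11.7 CPM in shKDM5C, 20.7, 18.6 and 18.9 CPM in shYY1 and 21.8, 19.1 and 20.7 CPM in the double knockdown. shKDM5C lay below shCtrl, shYY1 overlapped it by 1 library and the double knockdown lay above it. The log2 fold changes were -0.47 ± 0.101, 0.25 ± 0.0872 and 0.37 ± 0.102, with edgeR adjusted p-values of 0.000285, 0.0154 and 0.00421, and the shYY1 call was lost without shCtrl replicate 2 or 3 or shYY1 replicate 1 (0.17 to 0.22). In HK-2 it was at 16.6, 14.8 and 14.3 CPM in shCtrl, 6.39, 13.3 and 13.7 CPM in shKDM5C, 13.7, 13.2 and 11.4 CPM in shYY1 and 35.6, 29.6 and 28.4 CPM in the double knockdown. The double knockdown alone was above shCtrl, 2.04-fold (log2 fold change 1.03 ± 0.103, edgeR adjusted p = 6.86e-10), and the low shKDM5C library was replicate 1. PHLDA2, next to it, rose with the double knockdown in both lines, from 16.2 ± 0.912 to 29.1 ± 0.462 CPM in ACHN and from 38.5 ± 2.80 to 56.5 ± 3.33 CPM in HK-2 (log2 fold changes 0.85 and 0.55, edgeR adjusted p-values 2.35e-08 and 1.44e-07). PHLDA2 also rose in ACHN shYY1, by a log2 fold change of 0.51. In HK-2 shKDM5C it was not called (-0.63), and without replicate 1 it was called lower (-0.33 ± 0.0866, edgeR adjusted p = 0.00705). KCNQ1, a potassium channel subunit, was called in no comparison of a knockdown with shCtrl and had at most 10 counts in any ACHN library.

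IGF2, the paternally expressed fetal growth factor, was near the detection limit in all groups but 1. Its counts in ACHN were 5, 5 and 7 in shCtrl, 3, 0 and 1 in shKDM5C, 44, 58 and 56 in shYY1 and 15, 14 and 7 in the double knockdown, and no HK-2 library held more than 12. The shYY1 libraries were above all others. In CPM, IGF2 went from 0.304 ± 0.0654 in shCtrl to 2.87 ± 0.451 in shYY1, 9.14-fold (log2 fold change 3.19 ± 0.331). No shCtrl library reached the count filter, so being tested already required a difference, and these values are a description. Per exon length its level in shYY1 was 0.458 RPKM, well under that of IGF2R (26.9 RPKM), and 23.4% of its exonic bases are shared with other genes, among them INS-IGF2. H19, the maternally expressed noncoding RNA beside it, had at most 2 counts in an ACHN library and at most 9 in an HK-2 library.

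On chromosome 20, the neighbours BLCAP and NNAT rose in the double knockdown of ACHN. BLCAP, a small membrane protein gene, was at 33.2, 34.1 and 34.4 CPM in shCtrl, 34.1, 31.2 and 29.8 CPM in shKDM5C, 35.9, 34.0 and 36.8 CPM in shYY1 and 77.6, 76.3 and 79.6 CPM in the double knockdown. The double knockdown was far above the other groups, which overlapped one another. NNAT, neuronatin, a paternally expressed gene inside the span of BLCAP, was at 0.891, 0.863 and 0.595 CPM in shCtrl, 1.03, 1.12 and 1.14 CPM in shKDM5C, 1.07, 0.970 and 0.616 CPM in shYY1 and 3.91, 2.99 and 3.30 CPM in the double knockdown. Again only the double knockdown stood well above the rest. BLCAP rose 2.31-fold (log2 fold change 1.21 ± 0.0558, edgeR adjusted p = 1.2e-12) and NNAT 4.33-fold (2.11 ± 0.262, edgeR adjusted p = 1.07e-06). The gene models share 85 exonic bases on opposite strands, 6.55% of NNAT and 1.08% of BLCAP. In HK-2, BLCAP was at 47.2, 52.2 and 49.9 CPM in shCtrl, 36.7, 51.6 and 53.6 CPM in shKDM5C, 51.0, 42.7 and 49.6 CPM in shYY1 and 62.0, 54.9 and 56.4 CPM in the double knockdown, 1.16-fold higher (edgeR adjusted p = 0.00981), which was no longer called without shCtrl replicate 1 or double knockdown replicate 1 (log2 fold changes 0.17 and 0.16). NNAT was at 3.94, 3.37 and 2.88 CPM in HK-2 shCtrl, 2.48, 3.70 and 2.57 CPM in shKDM5C, 2.85, 2.59 and 2.31 CPM in shYY1 and 3.6, 2.82 and 2.66 CPM in the double knockdown, and was called in none of the 3 comparisons with shCtrl.

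L3MBTL1, a chromatin compactor that reads methylated histones, followed KDM5C depletion in ACHN. It was at 4.04, 5.93 and 4.06 CPM in shCtrl, 1.03, 1.24 and 1.85 CPM in shKDM5C, 5.28, 5.98 and 5.15 CPM in shYY1 and 0.772, 0.775 and 1.67 CPM in the double knockdown. Both groups with the KDM5C hairpin lay below both groups without it. L3MBTL1 fell 3.43-fold in shKDM5C (log2 fold change -1.78 ± 0.235, edgeR adjusted p = 4.47e-07) and 4.17-fold in the double knockdown (-2.06 ± 0.279, edgeR adjusted p = 3.35e-06). In HK-2 it was at 19.4, 15.7 and 20 CPM in shCtrl, 11.8, 15.1 and 19.3 CPM in shKDM5C, 15.1, 14.2 and 14.1 CPM in shYY1 and 16.5, 19.1 and 14.5 CPM in the double knockdown. There shYY1 alone was called, 1.27-fold lower (edgeR adjusted p = 0.0249), and the call was lost without shCtrl replicate 1 or 3 or shYY1 replicate 3 (log2 fold changes from -0.33 to -0.28). GNAS, on the same chromosome, rose 1.31-fold in the ACHN double knockdown (log2 fold change 0.39 ± 0.0486, edgeR adjusted p = 1.2e-06). In HK-2 shKDM5C GNAS was not called (-0.17), and without replicate 1 it was called lower (-0.12 ± 0.0303, edgeR adjusted p = 0.00492).

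**Figure D3:**
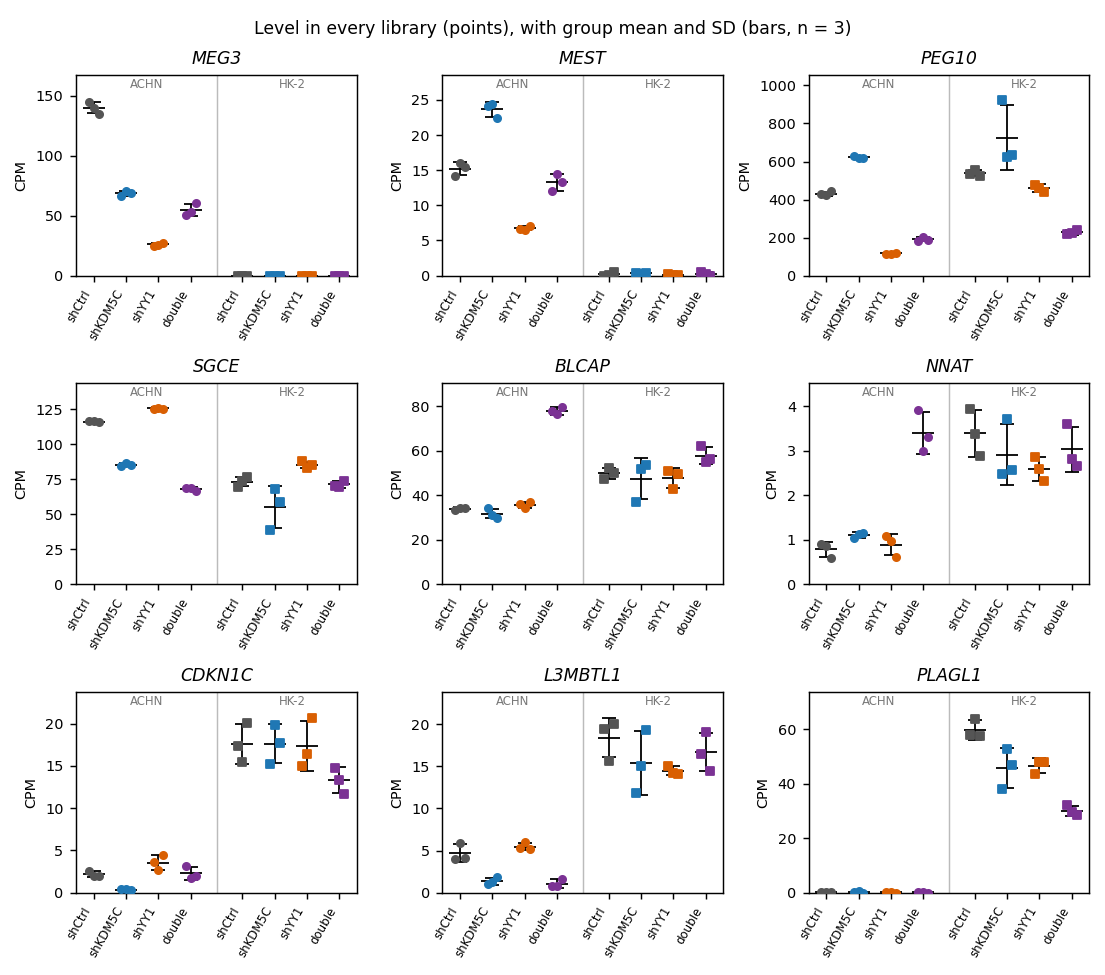
Level in CPM (vertical axis, from 0) in every library of 9 imprinted genes, by group, circles for ACHN and squares for HK-2; black bars are group means with SD (n = 3). MEG3 and MEST are near 0 in HK-2 and PLAGL1 in ACHN, and BLCAP and NNAT are apart from the other ACHN groups in the double knockdown.

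Among the genes measurable in HK-2 alone, PLAGL1 and PEG3 were lower in the double knockdown. PLAGL1 went from 59.8 ± 3.6 CPM in shCtrl to 45.8 ± 7.33 CPM in shKDM5C, 46.7 ± 2.66 CPM in shYY1 and 30.1 ± 1.91 CPM in the double knockdown. It fell 1.29-fold in shYY1 (log2 fold change -0.36 ± 0.0701, edgeR adjusted p = 0.000396) and 1.99-fold in the double knockdown (-0.99 ± 0.0736, edgeR adjusted p = 9.73e-13). In shKDM5C it was not called, and without replicate 1 it was (log2 fold change -0.28 ± 0.0739, edgeR adjusted p = 0.0075). All 3 knockdowns lay below shCtrl without overlap.

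PEG3, a zinc-finger gene proposed as a tumour suppressor, was at 1.53, 1.99 and 1.39 CPM in HK-2 shCtrl, 1.30, 1.15 and 1.04 CPM in shKDM5C, 1.01, 0.530 and 1.16 CPM in shYY1 and 0.295, 0.704 and 0.454 CPM in the double knockdown. All knockdown libraries were below the lowest control. Only the double knockdown was called, 3.35-fold lower (log2 fold change -1.74 ± 0.447), from 25 counts in its 3 libraries. In that comparison only shCtrl reached the count filter in every library, so being tested already required a difference. ZIM2 shares exons with PEG3, 36.6% of its exonic bases, so the counts of these 2 genes are uncertain where reads fall there. ZIM2 was at 1.48, 1.82 and 2.52 CPM in shCtrl, 1.30, 1.04 and 1.26 CPM in shKDM5C, 2.08, 1.82 and 0.751 CPM in shYY1 and 2.01, 1.47 and 0.907 CPM in the double knockdown. Those ranges overlapped except in shKDM5C, and ZIM2 was called in none of the 3 comparisons.

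Of the chromosome 15 genes of the Prader-Willi and Angelman region, SNURF, NDN and UBE3A were called in some comparisons. SNRPN, a splicing protein gene, was called in no comparison, and its group means lay between 1.64 and 4.27 CPM. SNURF, read from the same transcription unit, was at 0.210, 0.485 and 0.379 CPM in ACHN shCtrl, 0.379, 0.337 and 0.272 CPM in shKDM5C, 0.427, 0.862 and 0.336 CPM in shYY1 and 0.823, 1.05 and 1.02 CPM in the double knockdown, which lay above shCtrl (log2 fold change 1.43 ± 0.417). No shCtrl library reached the count filter, so being tested already required a difference, and the rise is a description. In HK-2 SNURF was between 0.0578 and 0.437 CPM in every library. SNURF shares 69.3% of its exonic bases with SNRPN, so its count is uncertain. NDN fell 1.21-fold in the HK-2 double knockdown (log2 fold change -0.28 ± 0.0916, edgeR adjusted p = 0.0131), a call lost without shCtrl replicate 1 or double knockdown replicate 1 or 3 (-0.24 to -0.23). In HK-2 shKDM5C, NDN was at 5.93 CPM in replicate 1 and at 20.3 and 22.7 CPM in the other replicates, and it was called lower without replicate 1 (log2 fold change -0.41 ± 0.0995, edgeR adjusted p = 0.0038). UBE3A rose in ACHN shKDM5C and double knockdown, 1.15-fold and 1.19-fold.

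Of the remaining members, IGF2R rose in the double knockdown of both lines, from 404 ± 3.96 to 672 ± 42.8 CPM in ACHN (log2 fold change 0.74 ± 0.0472, edgeR adjusted p = 1.16e-10) and by 0.84 ± 0.0365 in HK-2 (edgeR adjusted p = 2.35e-18). In HK-2 shKDM5C without replicate 1 it was called as well (0.36 ± 0.0327). GRB10, an adaptor that dampens insulin and IGF receptor signalling, was called in all 3 ACHN knockdowns with changes of at most 1.28-fold, and it rose 1.32-fold in the HK-2 double knockdown. In HK-2 shKDM5C it was not called (-0.30), and without replicate 1 it was called lower (-0.32 ± 0.076, edgeR adjusted p = 0.00317). ZDBF2, a paternally expressed zinc-finger gene, fell in ACHN shKDM5C (log2 fold change -0.67 ± 0.0528, edgeR adjusted p = 5.05e-11). In HK-2 shKDM5C it was not called, and without replicate 1 it was called lower (-0.25 ± 0.0888, edgeR adjusted p = 0.0446). INPP5F, an inositol phosphatase, rose 1.24-fold in ACHN shYY1 and fell 1.31-fold in the double knockdown. NAP1L5, a histone chaperone relative measurable in HK-2, went from 1.43 ± 0.501 CPM in shCtrl to 2.5 ± 0.936 CPM in the double knockdown and was not called. DIRAS3, a small GTPase with growth-suppressing activity, had at most 15 counts in a library.

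**Figure D4:**
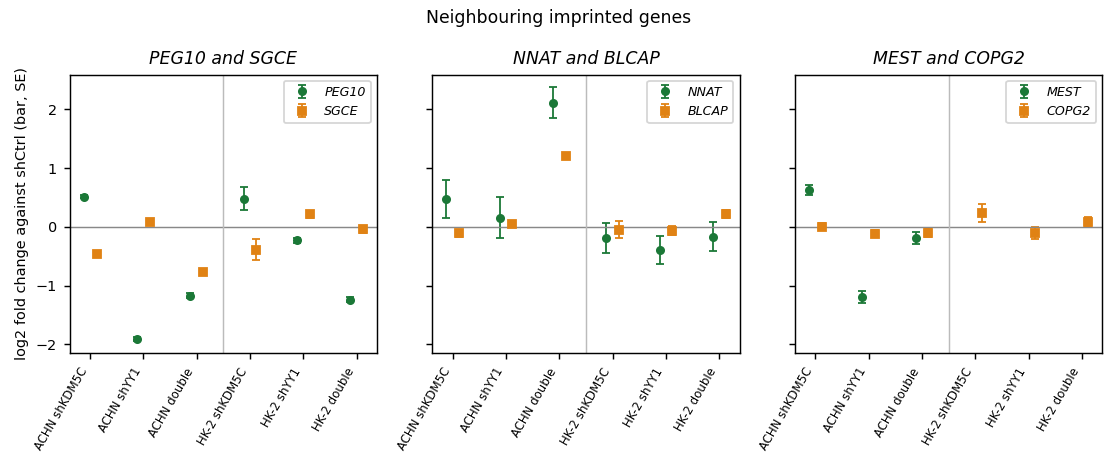
Log2 fold change against shCtrl (points, bars are SE) of 3 pairs of neighbouring imprinted genes in the 6 comparisons. PEG10 and SGCE lie on opposite sides of 0 in both ACHN single knockdowns, BLCAP and NNAT rise together in the ACHN double knockdown, and COPG2 stays near 0 while MEST changes.

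Whether the double knockdown equalled the sum of the single knockdowns was tested as the interaction over the 12 libraries of a line. In ACHN, 12 of 22 members tested were above the sum and 3 below it (over all genes, 26.8% above and 28.8% below), and their median departure was 0.39 on the log2 scale against 0.01 over all genes. The departure was largest for DIRAS3 (3.16 ± 0.815), whose 3 shKDM5C libraries held 6 counts, and next for MEG3 (2.13 ± 0.0834, edgeR adjusted p = 7.36e-17). DIRAS3 reached the count filter only in some shCtrl and double knockdown libraries. Being tested thus already required those groups to be higher, and its departure is a description. MEG3's single effects add to -3.51, while its double knockdown was at -1.36. CDKN1C (1.92 ± 0.448), NNAT (1.47 ± 0.413), BLCAP (1.25 ± 0.0819) and ZDBF2 (0.75 ± 0.0724) were also above the sum, with edgeR adjusted p-values of 0.000745, 0.00388, 1.95e-12 and 2.14e-09. No shKDM5C library reached the count filter for CDKN1C, so its departure is a description as well. INPP5F (-0.65), SGCE (-0.42) and GRB10 (-0.29) were below it. L3MBTL1, whose single effects add to -1.57, was at -2.06 in the double knockdown and its departure was not called. The smaller reduction of YY1 in the ACHN double knockdown than in shYY1 goes with the departures of MEG3, and its part was not tested.

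In HK-2, 3 of 22 members were above the sum and 1 below (over all genes, 5.21% above and 4.4% below). SLC22A18 (1.71 ± 0.296), PHLDA2 (1.18 ± 0.334) and GRB10 (0.81 ± 0.123) were above, with edgeR adjusted p-values of 0.0033, 0.0432 and 0.00154, and PEG10 was below (-1.49 ± 0.213, edgeR adjusted p = 0.00107). PEG10's single effects add to 0.25 and its double knockdown was at -1.24. Without shKDM5C replicate 1, 5 members were above and 2 below (over all genes, 15% above and 13.7% below), with PEG10 at -1.22 ± 0.0665 and SLC22A18 at 1.48 ± 0.168. The PHLDA2 departure was no longer called in the 9 refits that left out another library of HK-2 shCtrl, shYY1 or double knockdown (edgeR adjusted p-values from 0.078 to 0.107).

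**Figure D5:**
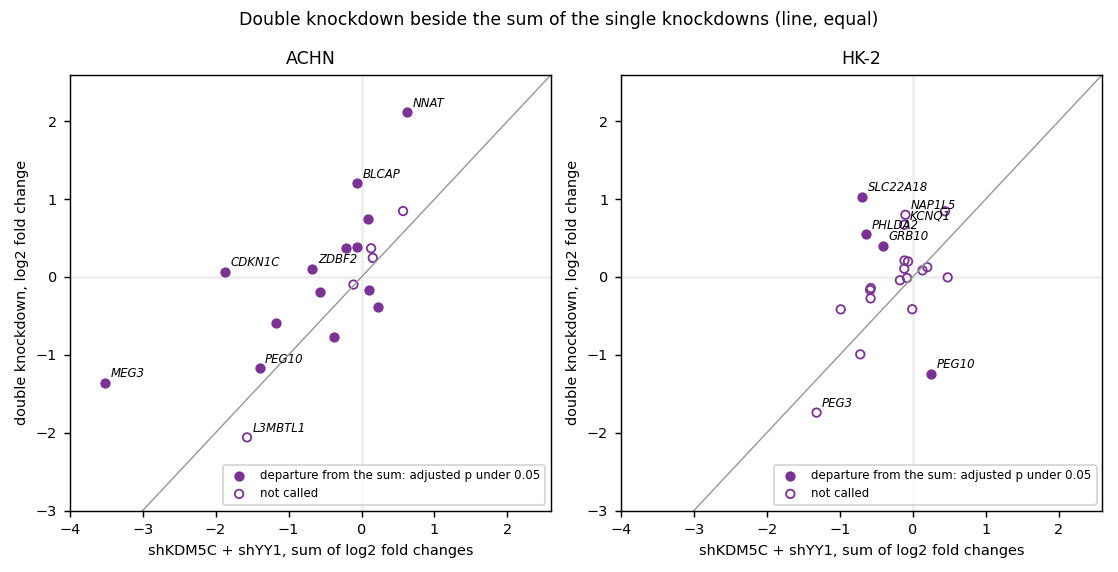
Log2 fold change of the double knockdown (vertical) beside the sum of the log2 fold changes of shKDM5C and shYY1 (horizontal) for imprinted genes tested in all 3 comparisons of a line; the line marks equality and filled points are departures called at an edgeR adjusted p-value under 0.05. In ACHN, MEG3 (-3.51 against -1.36) and BLCAP lie above the line; in HK-2, PEG10 (0.25 against -1.24) lies below it.

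The shYY1 effect differed between the lines for 8 of 26 members tested (33.1% of all genes) and the double knockdown effect for 11 of 28 (46% of all genes), by a test of the difference itself. PEG10 fell further in ACHN shYY1 than in HK-2 shYY1 (difference of log2 fold changes -1.67 ± 0.0558, edgeR adjusted p = 1.41e-19), and its double knockdown effects differed by 0.09 ± 0.0677, which was not called. The double knockdown effects of NNAT and BLCAP were higher in ACHN by 2.30 ± 0.355 and 1.01 ± 0.0875, and that of L3MBTL1 was lower by 1.89 on the log2 scale. For MEG3 and KCNQ1OT1, at 0 in HK-2, and PEG3, ZIM2 and NDN, at 0 in ACHN, no such difference could be estimated. They are counted among the 26 and 28 tested although they could not be called. The shares over all genes were counted in the same way. Of those called, IGF2 in shYY1 reached the count filter only in ACHN shYY1, and KCNQ1 in the double knockdown only in HK-2. Their differences are a description.

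The genes around the members and the factors that keep imprints were counted in the same way. Of 44 other genes of the same clusters, 40 matched a symbol. In ACHN, 5 rose and 9 fell of 19 tested in shKDM5C, 7 rose and 4 fell of 19 in shYY1, and 7 rose and 8 fell of 19 in the double knockdown. In HK-2, 1 rose and 2 fell of 18 in shKDM5C, 1 rose and 4 fell of 18 in shYY1, and 4 rose and 4 fell of 17 in the double knockdown. The shares of all genes called higher and lower, for these counts and the next, were 28.9% and 27.7%, 24.2% and 24.5%, and 30.7% and 32% in ACHN and 0.668% and 0.656%, 14.3% and 14.7%, and 25.5% and 24.3% in HK-2, in the same order. Of 24 genes for factors that write, read or erase imprints, 18 were tested in each comparison: 6 rose and 7 fell in ACHN shKDM5C, 2 rose and 6 fell in shYY1, 5 rose and 8 fell in the double knockdown, 0 were called in HK-2 shKDM5C, 2 rose and 3 fell in HK-2 shYY1, and 2 rose and 10 fell in the HK-2 double knockdown. Among the latter were DNMT1, the maintenance DNA methyltransferase, and UHRF1, which brings it to newly copied DNA, both named after their values were seen. DNMT1 fell by 0.44 on the log2 scale in the ACHN double knockdown and by 0.56 in that of HK-2, and UHRF1 by 0.98 and 0.91. Others of the list went the other way. The 5 that rose in the ACHN double knockdown were TRIM28, TET1, TET2, TET3 and SMCHD1, and the 2 in that of HK-2 were DNMT3B and ARID4B. TRIM28 rose by 0.64 in ACHN and fell by 0.74 in HK-2, and DNMT3B fell by 0.69 and rose by 0.56. The HK-2 shKDM5C counts of both lists are given only with replicate 1, the library that stood apart. No methylation was measured in these libraries.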

How the data were processed

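RNA-seq counts of 24 libraries (ACHN and HK-2; shCtrl, shKDM5C, shYY1 and double knockdown; n = 3) were analysed. Per the labels, the authors used the NEBNext Ultra kit, HISAT2 2.0.5 and featureCounts 1.5.0-p3 on hg38; the headers of the deposited files give featureCounts 2.0.1 in paired mode with no strand option and Ensembl release 84. The deposited values are raw read-pair counts per gene; antisense and overlapping genes cannot be separated. The 4117 genes without a symbol hold 0.243% of the counts and remained in the fits.

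CPM used TMM factors over all 24 libraries, and RPKM is CPM per kilobase of exonic length. Each comparison was fitted with edgeR 4.0.16 in R 4.3.3 on its own groups (filterByExpr, TMM, quasi-likelihood F test, Benjamini-Hochberg adjustment over all genes tested, called at 0.05). Interactions used the 12 libraries of a line, and differences between lines the shCtrl and knockdown libraries of both. Standard errors were derived from the F statistic. In groups of 3 an exact permutation test of a single gene cannot reach 0.05. Replicates of a group differed by more than sampling noise in every pair (chi-square per gene at least 1.94).

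The members and lists were chosen with earlier results of these data known. Values in every library are given for PEG3, ZIM2 and each member called with a log2 fold change of at least 1 in any comparison with shCtrl. Alternatives were RLE factors, total counts, DESeq2 1.42.0, other filters on low counts, all 4 groups of a line in 1 fit, a replicate block and leaving out each library. Promoter windows are from RefSeq; motif matches were found by text search.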

Additional observations from a re-analysis of the deposited data

Results flagged for a closer look

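The effect of a knockdown differed between the lines, by a test of the difference itself (ACHN minus HK-2, difference of log2 fold changes, edgeR adjusted p-value under 0.05), for the following members. The targeted genes were not reduced equally in the 2 lines, as given above, and the part of this was not tested. For shYY1 the difference was 4.26 for IGF2, which had at most 6 counts in an HK-2 shCtrl or shYY1 library, and -1.67 for PEG10. It was 0.73 for CDKN1C, 0.53 for PHLDA2, 0.52 for SLC22A18 and 0.48 for GRB10. It was 0.57 for both L3MBTL1 and INPP5F. Only the ACHN shYY1 libraries reached the count filter for IGF2, so being tested already required a difference, and the IGF2 value is a description. The CDKN1C difference was no longer called without ACHN shCtrl replicate 2 or 3, ACHN shYY1 replicate 3, HK-2 shCtrl replicate 3 or HK-2 shYY1 replicate 1 (0.54 to 0.67). The L3MBTL1 difference was no longer called without ACHN shCtrl replicate 1 or 3, ACHN shYY1 replicate 2 or HK-2 shCtrl replicate 1 or 3 (0.47 to 0.53).

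For the double knockdown the difference was 2.30 for NNAT, 1.01 for BLCAP and 0.42 for GNAS. It was 0.27 for UBE3A, no longer called without ACHN shCtrl replicate 1, HK-2 shCtrl replicate 1 or HK-2 double knockdown replicate 3 (0.20 to 0.21). It was 0.31 for PHLDA2, no longer called without ACHN shCtrl replicate 2 or 3, HK-2 shCtrl replicate 1 or HK-2 double knockdown replicate 2 (0.26). It was -0.71 for SGCE, -0.64 for SLC22A18, -0.55 for GRB10, -0.57 for INPP5F and -1.89 for L3MBTL1. The value for KCNQ1, -4.12, rests on 24 counts in ACHN shCtrl and 2 in the ACHN double knockdown. Only HK-2 libraries reached the count filter for KCNQ1, so that value is a description.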

How the results depend on the processing

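The direction of all 111 member calls was the same in every refit. Of 894 refits that left out 1 library, 51 lost a call and 14 of the calls were affected. Of 717 refits by other settings, 14 did. By the study's threshold 2, 3 and 2 members were called in ACHN shKDM5C, shYY1 and double knockdown and 0 and 1 in HK-2 shYY1 and double knockdown, against 12, 11, 15, 4 and 10. For HK-2 shKDM5C, DESeq2 and the fit with all 4 groups called 1 member each against 0. That fit, which includes the library that stands apart, called 0 in HK-2 shYY1 and 6 in the double knockdown. Leaving out 1 library at a time gave 0 to 9 members in HK-2 shKDM5C, the 9 without shKDM5C replicate 1, 2 to 4 in HK-2 shYY1, the 2 without shCtrl replicate 1, 8 to 12 in the HK-2 double knockdown (8 higher and 4 lower without double knockdown replicate 3, against 5 and 5), and 3 to 7 in the HK-2 interaction, the 7 without shKDM5C replicate 1. The difference between the lines held 6 to 8 members for shYY1 and 9 to 13 for the double knockdown, with 3 higher and 6 lower, against 5 and 6, without HK-2 shCtrl replicate 1. Same-numbered replicates did not deviate together (correlations from -0.221 to 0.0894), so the values gave no sign that the numbers pair the samples. How the libraries were prepared cannot be read from this, and the HK-2 values include the shKDM5C library that stands apart. With a replicate block, 110 of the 111 calls held, the exception being PHLDA2 in the HK-2 interaction (log2 1.21, edgeR adjusted p = 0.071), and 12, 11 and 15 members were called in ACHN. To be tested, a gene needed about 10 counts in as many libraries as the smallest group holds. A gene low in 1 group was thus tested where the other group was high.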
